A study of Mus musculus with 9 samples.

Results

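Runx1, Runx2, Runx3 and Cbfb were followed through the cell types of the mouse heart after myocardial ischemia-reperfusion (I/R). These 4 genes, the 3 Runx transcription factors and their shared partner, were taken by gene symbol from the 23747 genes of each table. The data were single-nucleus RNA-sequencing counts of 9 hearts, 1 library per mouse, with 3 mice in each of 3 groups. All were C57BL/6 mice of 8 weeks, and the tissue came from below the level of the ligature. Sham mice were gavaged with vehicle for 7 days before surgery in which the needle was passed and nothing was tied. I/R mice received the same vehicle for 7 days, then occlusion of the left anterior descending coronary artery (LAD) for 30 min and reperfusion for 24 h. SBP mice were gavaged for 7 days with Shexiang Baoxin Pill (the labels call it MUSKARDIA), and occlusion and reperfusion then followed as in I/R mice. Since every SBP mouse was also injured, SBP against I/R compares pretreatment within injured hearts, and no uninjured SBP group was analysed here.

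RUNX proteins bind DNA through a conserved Runt domain, and CBFB, which does not itself contact DNA, raises the affinity of all of them for the same short motif. RUNX1 is required for definitive blood formation and stays on in most leukocytes, RUNX2 is the master factor of osteoblasts, and RUNX3 drives cytotoxic T cell and natural killer programs. In the heart, RUNX1 has been studied mostly in cardiomyocytes after infarction, and RUNX factors recruit both activators and Groucho-family corepressors to their targets.

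In the GRCm38 annotation, Runx1 spans 224.7 kb of the minus strand of chromosome 16 (chr16:92601466-92826149), and Runx2 spans 318.8 kb of the minus strand of chromosome 17 (chr17:44495987-44814797). Runx3 spans 57.3 kb of the plus strand of chromosome 4 (chr4:135120652-135177990), and Cbfb spans 47.3 kb of the plus strand of chromosome 8 (chr8:105170674-105217989). The antisense gene Gm26626 overlaps Runx1, and Supt3, Runx2os1 and Runx2os2 overlap Runx2 on the opposite strand. The sources used here do not say whether counting used the strand, so reads of such partners may be counted with Runx1 or Runx2. The RUNX motif itself stands in the Runx genes' own promoters. RefSeq (GRCm38.p6) gave 6 promoters for the 4 genes, each from 250 bases before to 50 bases after the start site. A run of 18 bases with a pair of ACCACA motifs occurred in 3 of the 6, those of the distal start sites of Runx1 and Runx3 and the Runx2 start site. They are shown, 5′ to 3′ on the gene's strand with the motifs in capitals, because 3 members of the family share this run.
Runx1, chr16:92826025-92826054, minus strand, bases 21 to 50 after the start site: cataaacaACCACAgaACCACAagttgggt
Runx2, chr17:44814583-44814612, minus strand, bases 16 to 45 after the start site: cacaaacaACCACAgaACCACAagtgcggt
Runx3, chr4:135120503-135120532, plus strand, 142 to 113 bases before the start site: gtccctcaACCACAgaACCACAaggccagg
Of 32851 promoters of all genes, 16.8% held ACCACA or its reverse complement TGTGGT at least once, 1.8% held 2 or more, and 4 held the 18-base run on either strand, the fourth being that of Gm16225. The Cbfb promoter and the proximal start sites of Runx1 and Runx3 held no such motif.

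The tables analysed here held 49171 nuclei, with 10329520 to 18205985 unique molecular identifiers (UMIs, 1 per captured RNA molecule) per mouse. The study gives a larger number of nuclei, and which ones these tables lack was not worked out. After 85 nuclei marked as doublets were removed, 49086 were grouped by clustering without the 4 members, and each group was named after marker genes, so that a name stands for nuclei resembling that type. There were 14101 fibroblast, 13452 endothelial, 10542 cardiomyocyte, 9000 myeloid and 595 T nuclei, and 6 rarer types with 121 to 335 nuclei each. Pairs of libraries shared 4 to 14 cell barcodes. In the read quality values that the study reports, the sham libraries differed from every I/R and SBP library. They had fewer low-quality reads, more reads with too many undetermined bases and a lower share of G and C bases before filtering. In comparisons with sham, this difference cannot be told apart from injury, and its part was not tested. I/R replicate 2 and SBP replicate 1 stood apart. A cardiomyocyte cluster led by Saa3 and Ankrd1 took 97.2% and 88.4% of their cardiomyocyte nuclei, against at most 16.0% in the other I/R and SBP mice and 0.602% in sham. I/R replicate 1 had the largest share of myeloid nuclei, 33.7%.

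Runx1 was highest in leukocyte nuclei, and in injured hearts it was also found in a fibroblast cluster described below. Runx3 was almost only found in lymphoid, dendritic and myeloid nuclei. Runx2 was found in T, NK and dendritic nuclei and in fibroblasts, also of uninjured hearts. Cbfb was found in every cell type. Levels are given as UMIs per 1000000 UMIs of the same cell type and mouse (CPM), as mean ± SD over the mice with at least 20 such nuclei. Cell types come from the same nuclei, so their order is a description. Levels of different genes are not set against each other.

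**Figure D1:**
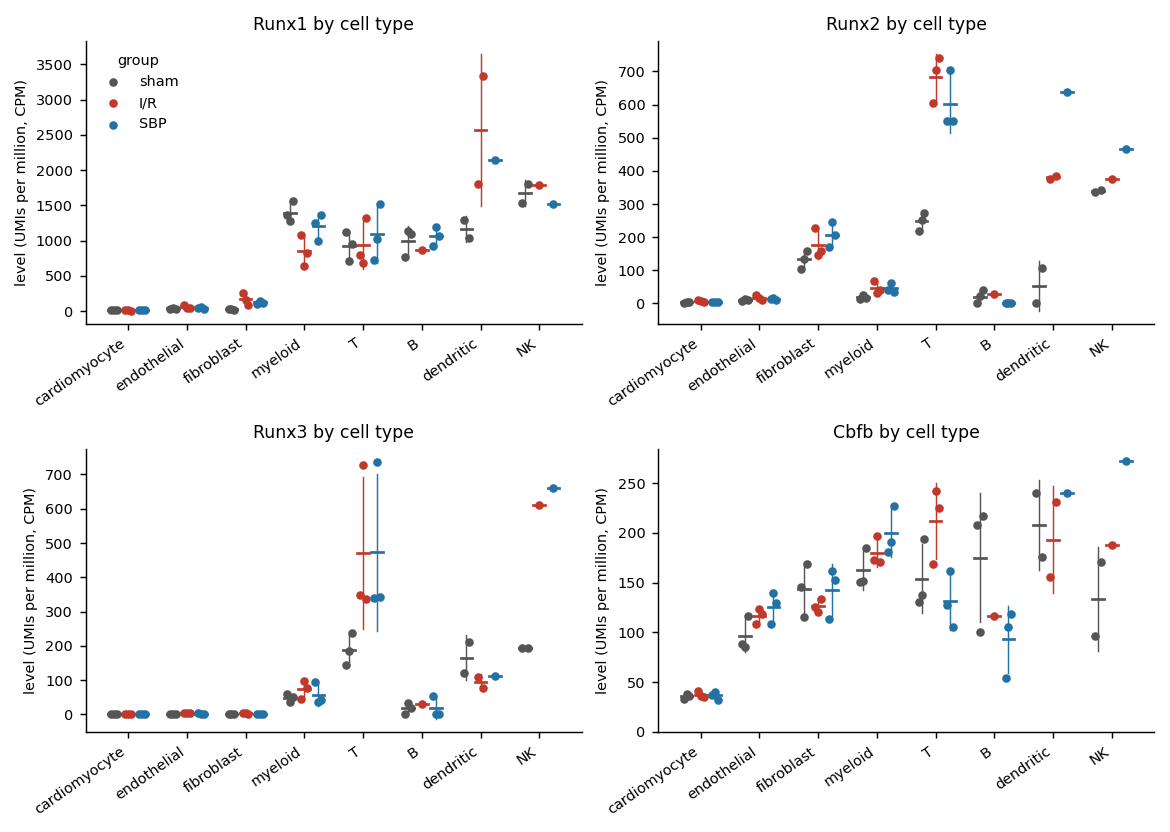
Level of each member (CPM, linear axis from 0) in 8 cell types, with 1 point per mouse with at least 20 nuclei; horizontal bars are group means and vertical lines ± SD where there are at least 2 mice. Runx1 sits far higher in leukocyte nuclei than in cardiomyocyte nuclei (mean 14.9 CPM), Runx2 is highest, of the types plotted and with nuclei typed by cluster, in T nuclei of I/R and SBP hearts, Runx3 is near 0 outside leukocytes, and Cbfb is lowest in cardiomyocyte nuclei (mean 36.7 CPM).

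The mean Runx1 level over all groups was 1925 ± 898 CPM in dendritic nuclei (5 mice), 1662 ± 154 in natural killer (NK) nuclei (4 mice) and 1151 ± 292 in myeloid nuclei (9 mice). It was 1008 ± 156 in B nuclei (7 mice), 984 ± 295 in T nuclei (9 mice) and 783 ± 323 in neutrophils (3 mice). Neighbours among these 6 leukocyte types differed by less than the larger of their SDs, except that the step from NK to myeloid nuclei exceeded both. Fibroblast nuclei followed at 109 ± 76.4 CPM (9 mice), then endothelial nuclei at 50.1 ± 18.5 (9 mice), mural nuclei at 40.3 ± 35.4 (4 mice) and cardiomyocytes at 14.9 ± 4.36 (9 mice). Schwann nuclei, at 146 CPM, had only 2 mice with enough nuclei. With each nucleus thinned to 500 UMIs, 35.7% of myeloid, 32.6% of T and 13.04% of Tnc fibroblast nuclei (a cluster described with the fibroblasts) had a Runx1 UMI, against 0.859% of cardiomyocyte nuclei. Unthinned shares were 69.9%, 51.8%, 44.9% and 6.89%, at median depths of 1738.5, 1042, 3105.5 and 4431 UMIs.

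Outside leukocytes, the Runx1 level was set beside that of 12 myeloid marker genes, since RNA freed during nuclei preparation can carry leukocyte transcripts into other droplets. Free RNA itself was not measured here. Each gene's level was expressed as a percent of its level in myeloid nuclei of the same group. In cardiomyocyte nuclei Runx1 stood at 0.963% for sham, 1.75% for I/R and 1.29% for SBP, where the medians of the 12 markers were 1.05%, 2.76% and 1.74%. In endothelial nuclei it stood at 2.93%, 7.03% and 3.92%, with medians of 4.10%, 10.8% and 6.56%. Runx1 was below the marker median in both types and in all groups, but within the range of the markers. In sham that range was 0.233% to 30.4% in cardiomyocyte and 1.66% to 112% in endothelial nuclei. The part of carried RNA in the Runx1 values was not tested. In fibroblasts outside the Tnc cluster it was also below the median, at 2.16%, 5.16% and 2.59% beside medians of 2.72%, 7.47% and 4.72%. The Tnc cluster was different: Runx1 stood at 43.7% of the myeloid level in I/R and 31.1% in SBP, beside medians of 7.96% and 3.2%, and 1 of the 12 markers, Vcan, which fibroblasts also express, was higher.

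**Figure D2:**
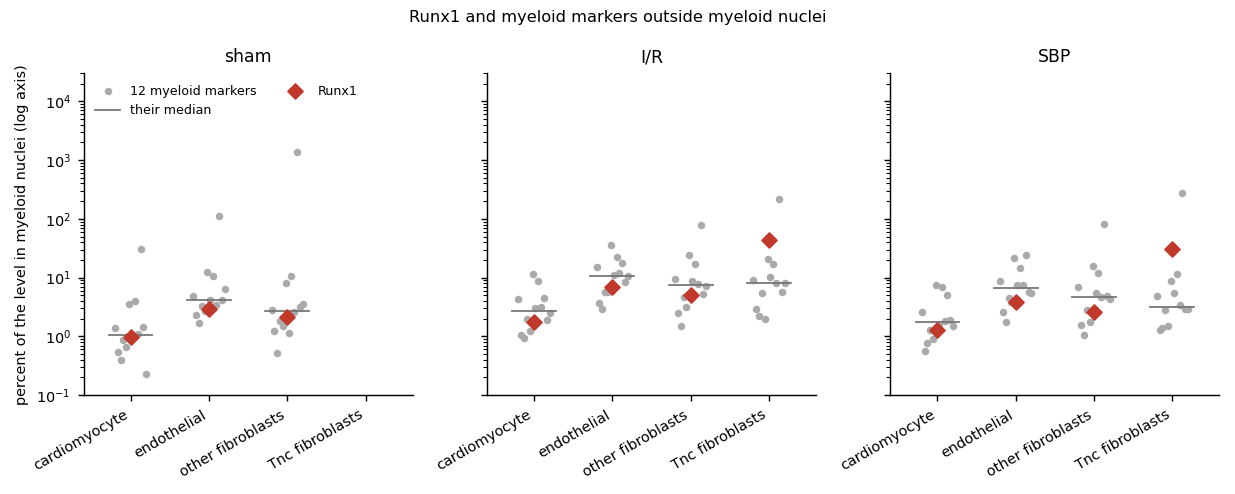
Runx1 (red diamonds) and 12 myeloid marker genes (grey points, with their median as a line) in non-myeloid nuclei, as a percent of each gene's level in myeloid nuclei of the same group, on a log axis. Runx1 lies below the marker median in cardiomyocyte, endothelial and other fibroblast nuclei and well above it in Tnc fibroblasts of I/R (43.7%) and SBP (31.1%); sham, with 8 Tnc nuclei, is not plotted there.

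Tests compared groups over mice, in each type with enough nuclei, by limma on log2(CPM + 1) with Benjamini-Hochberg adjustment over all genes of that type. To be called, a difference needed an adjusted p no higher than 0.05 and a log2 fold change beyond 0.25 in either direction. Of 32 combinations of the 4 members with 8 populations, 28 passed the filter on low values. Runx3 missed it in cardiomyocyte, endothelial and all fibroblast nuclei. I/R against sham gave 4 called differences of 28, SBP against I/R gave 0 and SBP against sham gave 3. The shares of all genes called ranged over the populations from 0.048% to 17.5% in I/R against sham and from 0% to 12.7% in SBP against sham, so these counts are no result about the members as a set. These comparisons share their groups.

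Fibroblast nuclei gained Runx1 after I/R. The level was 35.7, 36.3 and 22.2 CPM in the 3 sham mice, 264, 157 and 93.4 CPM in the I/R mice, and 104, 152 and 120.5 CPM in the SBP mice. Every injured heart lay above every sham heart, while I/R and SBP overlapped, with the highest value in I/R replicate 1. Runx1 was higher in I/R than sham by 2.26 on the log2 scale (SE 0.32, 4.78-fold, limma adjusted p = 0.0016) and higher in SBP than sham by 1.95 (SE 0.32, 3.85-fold, adjusted p = 0.00563). Among all genes tested in fibroblast nuclei, 11.5% were called in I/R against sham and 5.99% in SBP against sham. Both calls held without each mouse in turn, with log2 changes of 1.902 to 2.61 and 1.71 to 2.06. In the same nuclei, neutrophil marker RNA was 10.5 to 42.3 CPM in sham and 70.1 to 279 CPM in I/R over 6 genes with none at 0, and myeloid marker RNA 295 to 564 and 385 to 798 CPM over 12 genes with none at 0. Dendritic marker RNA was 124 to 176 and 64.0 to 110 CPM over 8 genes with 1 at 0 in each group, and cardiomyocyte marker RNA 4963 to 6271 and 1793 to 2675 CPM over 8 genes with none at 0. In SBP fibroblasts neutrophil marker RNA was 50.5 to 126 CPM, myeloid 329 to 482, dendritic 66.2 to 82.8 and cardiomyocyte 1789 to 2525 CPM. The 12 myeloid genes include Vcan, which fibroblasts also express, so that sum is not leukocyte RNA alone. Endothelial marker RNA was 272 to 356 CPM in sham, 189 to 245 in I/R and 160 to 380 in SBP. The part of these RNAs in the Runx1 values was not tested.

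Most of the fibroblast Runx1 lay in 1 cluster. This cluster was led by Kif26b, Tnc and Adam12, with Hmga2 and the cycling marker Top2a also among its leading genes. It held Postn, Cthrc1, Timp1 and Lox among its markers and had 1924 nuclei, of which 8 were from sham hearts. It made up 33.2%, 30.1% and 10.0% of the fibroblast nuclei of the I/R mice and 18.3%, 22.3% and 10.1% of those of the SBP mice. These shares are given as context, because genes that define the cluster also differ between groups. Within it, Runx1 was 467, 320 and 334 CPM in I/R and 297, 320 and 494 CPM in SBP. The injured groups overlapped (means 374 ± 81.1 and 370 ± 108, exact permutation p = 1, two-sided, smallest possible 0.1). The cluster held 82.7% of all fibroblast Runx1 UMIs in I/R, 83.7% in SBP and 1 of 248 in sham.

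The remaining 12177 fibroblast nuclei showed little of this. Their Runx1 level was 35.7, 36.0 and 22.2 CPM in sham, 71.2, 51.6 and 27.1 in I/R, and 29.4, 37.9 and 22.6 in SBP. I/R replicates 1 and 2 were above all sham mice and I/R replicate 3 was within their range. The difference from sham was 0.61 on the log2 scale (95% interval -0.13 to 1.36, adjusted p = 0.352) and was not called, where 3.57% of genes were. Myeloid marker RNA in the remaining fibroblasts summed to 296 to 564 CPM in sham, 291 to 740 in I/R and 247 to 364 in SBP, over 12 genes with none at 0. Neutrophil marker RNA was 10.5 to 42.3, 70.2 to 284 and 57.0 to 137 CPM in the same order of groups. Cardiomyocyte marker RNA was 4965 to 6277, 1945 to 3119 and 1972 to 2441 CPM. Endothelial and dendritic marker RNA was also lower in I/R than in sham. The part of these marker RNAs in the Runx1 values was not tested.

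**Figure D3:**
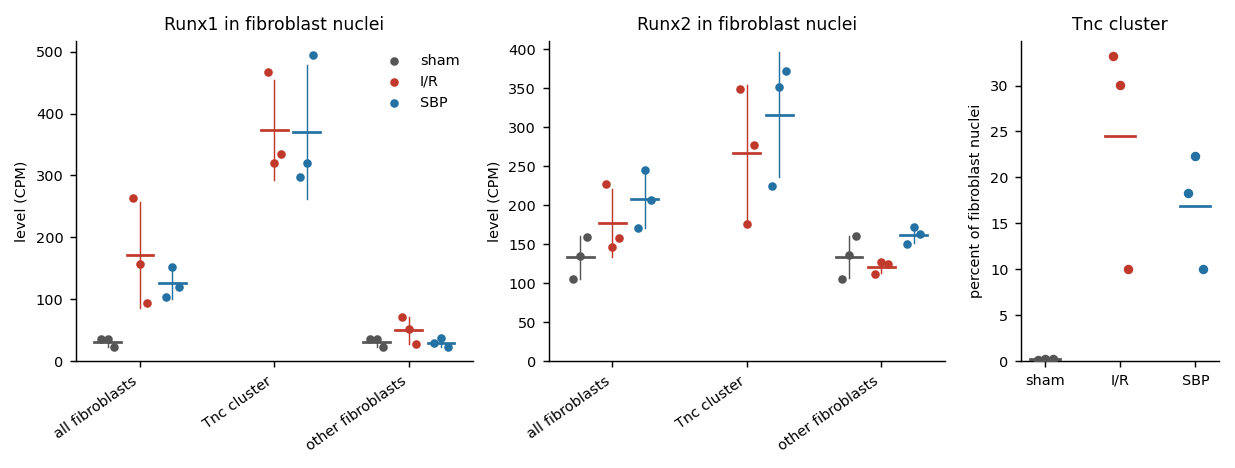
Runx1 and Runx2 levels (CPM, axes from 0) in all fibroblast nuclei, in the Tnc cluster and in other fibroblasts, and the percent of fibroblast nuclei in the Tnc cluster, with 1 point per mouse, group means as bars and ± SD as vertical lines in the level panels. Runx1 in the Tnc cluster lies between 297 and 494 CPM in all 6 injured hearts, against at most 71.2 CPM in the other fibroblasts.

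Myeloid nuclei moved the other way. Their Runx1 level was 1358, 1280 and 1560 CPM in sham, 1085, 641 and 822 in I/R, and 1253, 993 and 1368 in SBP. All I/R mice were below all sham mice, with I/R replicate 2 lowest, and SBP lay between the groups and overlapped both. Runx1 fell by 0.74 on the log2 scale in I/R against sham (SE 0.20, limma adjusted p = 0.0233), in a cell type where 17.5% of genes were called. The call was lost without sham replicate 1, sham replicate 3, I/R replicate 2 or I/R replicate 3 (log2 changes of -0.94 to -0.59 and adjusted p of 0.00552 to 0.0913 over all left-out mice), and without I/R replicate 2 and SBP replicate 1 together (-0.58, adjusted p = 0.0863). Dendritic marker RNA in the myeloid nuclei moved as well, from 806 to 948 CPM in sham to 73.7 to 257 CPM in I/R over 8 genes with none at 0, and cardiomyocyte marker RNA from 6533 to 7794 CPM to 1913 to 3041 CPM over 8 genes. B marker RNA was 899 to 1160 CPM in sham and 268 to 366 CPM in I/R over 7 genes with 1 at 0 in each group. The B list includes Bank1, also a leading gene of the resident-like macrophages described below, so this sum is not B cell RNA alone. Neutrophil marker RNA was 100 to 139 CPM in sham and 224 to 619 CPM in I/R over 6 genes with none at 0. The part of these RNAs in the Runx1 values was not tested.

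The myeloid nuclei were of a different mix in injured hearts, and Runx1 differed between their clusters. Resident-like macrophages, with Cd163, Lyve1 and Cbr2, were 95.4%, 92.3% and 97.1% of sham myeloid nuclei, 16.3%, 31.4% and 53.4% of those in I/R, and 53.0%, 25.3% and 51.2% of those in SBP. Their Runx1 level was 1352, 1301 and 1574 CPM in sham, 1664, 823 and 1006 in I/R, and 1557, 1492 and 1803 in SBP. I/R replicate 1 was above every sham mouse and the other two I/R mice below them, and the change of -0.31 on the log2 scale (95% interval -0.78 to 0.17, adjusted p = 0.54) was not called, where 1.41% of genes were. Injury macrophages, with Gpnmb, Arg1 and Spp1, held 942, 599 and 603 CPM of Runx1 in I/R and 760, 757 and 746 CPM in SBP. In a cluster led by Vcan and also by Saa3 and Clec4e, Runx1 was 1280, 541 and 976 CPM in I/R and 1372, 988 and 1343 CPM in SBP. I/R replicate 2, which had 55.2% of its myeloid nuclei in that last cluster, had the lowest Runx1 level of the I/R mice in all 3 clusters.

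**Figure D4:**
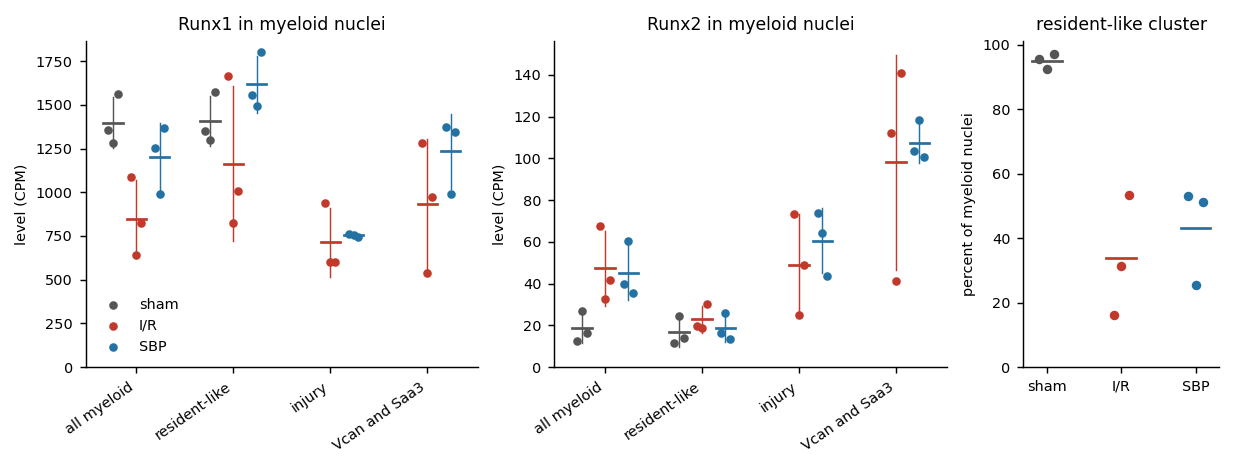
Runx1 and Runx2 levels (CPM, axes from 0) in all myeloid nuclei and in 3 of their clusters, and the percent of myeloid nuclei in the resident-like cluster, with 1 point per mouse, group means as bars and ± SD as vertical lines in the level panels. Runx1 is lower in injury macrophages (599 to 942 CPM) than in most resident-like samples, while Runx2 stays at or below 30.3 CPM in resident-like macrophages and reaches 141 CPM in the Vcan and Saa3 cluster.

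In cardiomyocyte nuclei no Runx1 difference was detectable. The level was 15.7, 14.7 and 12.01 CPM in sham, 24.9, 13.1 and 9.46 in I/R, and 12.5, 14.6 and 17.1 in SBP. The I/R mice spanned the whole range of the other groups. The log2 change in I/R against sham was 0.06 (95% interval -0.60 to 0.72, adjusted p = 0.951), where 0.814% of genes were called, and its sign turned without I/R replicate 1 (-0.33) or sham replicate 3 (-0.03) and when nuclei were typed by marker score (-0.33). In the Saa3 and Ankrd1 cluster of injured cardiomyocytes, Runx1 was 26.4, 13.2 and 26.5 CPM in I/R and 11.6, 9.57 and 38.0 CPM in SBP, against 12.04 to 15.7 CPM in the other cardiomyocytes of sham. These levels overlapped.

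Endothelial nuclei held 36.2, 49.3 and 36.2 CPM of Runx1 in sham, 94.8, 51.9 and 47.1 in I/R, and 43.6, 57.0 and 34.5 in SBP. I/R replicate 1 stood above the rest, and the change of 0.62 (95% interval 0.04 to 1.20, unadjusted p = 0.0379, limma adjusted p = 0.245) was not called, where 3.13% of genes were. Myeloid marker RNA in endothelial nuclei was 210 to 274 CPM in sham and 376 to 654 CPM in I/R, over 12 genes with none at 0, and its part was not tested. In endocardial endothelial nuclei Runx1 was 19.0 to 46.0 CPM in sham and 47.8 to 72.3 CPM in I/R, which did not overlap (exact permutation p = 0.1, two-sided, the smallest possible). In arterial, lymphatic and other endothelial nuclei, I/R and sham overlapped. Capillary nuclei lacked enough sham mice for this comparison. Myeloid marker RNA was not summed for these clusters.

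Over the whole heart, the sum of all nuclei, Runx1 was 113, 142 and 156 CPM in sham, 391, 198 and 155 in I/R, and 165, 273 and 205 in SBP. SBP lay above sham throughout, while I/R replicate 3 was within the sham range. The change in I/R against sham was 0.65 (95% interval -0.05 to 1.34, adjusted p = 0.205), and it was not called where 10.8% of genes were. In such sums, more cells of a type and more RNA per cell cannot be told apart. Of the Runx1 UMIs in sham hearts, 67.7% came from resident-like macrophages, 5.17% from cardiomyocytes and 4.23% from fibroblasts outside the Tnc cluster. In I/R hearts, 29.5% came from injury macrophages, 22.4% from resident-like macrophages and 12.999% from Tnc fibroblasts.

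Schwann nuclei aside, Runx2 was highest in T, NK, dendritic and fibroblast nuclei. Mean levels over all groups were 511 ± 209 CPM in T nuclei (9 mice), 380 ± 60.5 in NK nuclei (4 mice), 301 ± 252 in dendritic nuclei (5 mice) and 172 ± 45.2 in fibroblasts (9 mice). These neighbours differed by less than the larger of their SDs, and with nuclei typed by marker score the T level was 240 CPM, so the first place of T nuclei rests on the typing. Mural nuclei followed at 62.4 ± 28.8 CPM (4 mice), neutrophils at 54.8 ± 25.2 (3 mice), myeloid nuclei at 37.1 ± 18.2 (9 mice) and endothelial nuclei at 13.2 ± 5.28 (9 mice). B nuclei had 13.003 ± 17.0 CPM (7 mice) and cardiomyocytes 4.83 ± 2.02 CPM (9 mice). The 82 B nuclei of SBP hearts had 0 Runx2 UMIs, which allows up to 36.8 CPM by 3 counts over the group, a limit for counting error only. Schwann nuclei were left out of this order because no I/R or SBP mouse had enough of them. In SBP hearts they gave 4.73% of Runx2 UMIs from 0.405% of all UMIs, where T nuclei gave 3.62% from 0.423%. Schwann nuclei gave 0.416% from 0.3% in sham and 0.508% from 0.102% in I/R. T nuclei gave 4.71% from 0.649% in sham and 5.71% from 0.566% in I/R.

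In fibroblast nuclei, Runx2 was 105, 135 and 160 CPM in sham, 227, 146 and 158 in I/R, and 171, 245 and 207 in SBP. All SBP mice were above all sham mice, and I/R overlapped both. Neither difference from sham was called: it was 0.34 in I/R (95% interval -0.11 to 0.78, adjusted p = 0.343) and 0.60 in SBP (95% interval 0.16 to 1.05, adjusted p = 0.117). The Tnc cluster held 349, 176 and 278 CPM in I/R and 225, 352 and 373 CPM in SBP, and 56.3% and 45.8% of the fibroblast Runx2 UMIs of those groups. The other fibroblasts held 105, 136 and 160 CPM in sham, 111, 127 and 125 in I/R, and 150, 172 and 163 in SBP. In this population the I/R mice lay inside the sham range, and all SBP mice were above all I/R mice, by 0.41 on the log2 scale (95% interval 0.05 to 0.77, unadjusted p = 0.0274, limma adjusted p = 1). In sham, Runx2 in these fibroblasts stood at 698% of its myeloid level, where Runx1 stood at 2.16% of its own.

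In myeloid nuclei, Runx2 rose in both injured groups against sham. It was 12.7, 27.0 and 16.5 CPM in sham, 67.6, 32.7 and 41.7 in I/R, and 40.0, 60.2 and 35.4 in SBP. Both injured groups lay wholly above sham. The log2 change was 1.30 in I/R against sham (SE 0.31, 2.46-fold, limma adjusted p = 0.0127) and 1.27 in SBP against sham (SE 0.31, 2.42-fold, adjusted p = 0.0183), and 12.7% of genes were called in the latter comparison. The first call was lost without sham replicate 1 or 3 and with limma voom (adjusted p = 0.0567), and the second without sham replicate 1, sham replicate 3 or SBP replicate 2 and with limma voom (adjusted p = 0.0787). Over all left-out mice, calls lost or kept, the log2 changes were 1.01 to 1.55 and 1.04 to 1.52. The dendritic, cardiomyocyte, B and neutrophil marker RNA given beside myeloid Runx1 moved in these same nuclei. So did endothelial marker RNA, which was 362 to 453 CPM in sham and 196 to 243 CPM in I/R. Fibroblast marker RNA was 739 to 952 CPM in sham, 857 to 1318 in I/R and 990 to 1067 in SBP. In this list SBP lay wholly above sham, and I/R overlapped both. The endothelial and fibroblast lists had 8 genes each with none at 0. The part of all these RNAs in the Runx2 values was not tested.

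By cluster, the resident-like macrophages kept a low Runx2 level, 11.5, 24.3 and 14.04 CPM in sham, 19.5, 18.6 and 30.3 in I/R, and 16.4, 26.01 and 13.6 in SBP. The groups overlapped, and the change of 0.50 (95% interval -0.27 to 1.26, adjusted p = 0.54) was not called. Injury macrophages held 73.2, 24.8 and 48.9 CPM in I/R and 73.8, 64.2 and 43.4 CPM in SBP. They contributed 283 of the 496 Runx2 UMIs of I/R myeloid nuclei, or 57.1%. The sham nuclei of this cluster, 14 in all, had 0 UMIs, which allows up to 149 CPM by 3 counts over the group. The Vcan and Saa3 cluster held 112, 41.1 and 141 CPM in I/R and 103, 119 and 101 CPM in SBP.

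In T nuclei Runx2 was higher in every injured heart than in any sham heart, without passing adjustment. The level was 218, 252 and 273 CPM in the sham mice, 605, 703 and 741 in I/R, and 551, 705 and 552 in SBP. The values rest on 68 Runx2 UMIs in 198 sham nuclei, 180 in 250 I/R nuclei and 121 in 147 SBP nuclei. The difference was 1.31 on the log2 scale in I/R (SE 0.25, unadjusted p = 0.000106) and 1.18 in SBP (SE 0.25, unadjusted p = 0.000282). With nuclei typed by marker score these were 1.17 and 0.64, and the mean level over all mice was 240 in place of 511 CPM. Neither passed adjustment over the 2084 genes tested in these few nuclei (limma adjusted p = 0.0661 and 0.0975, from 0.011 to 0.101 and 0.0214 to 0.374 under other settings, and from 0.0167 to 0.187 and 0.0489 to 0.231 with 1 mouse left out), where 0.048% of genes were called in I/R and 0% in SBP (limma; 232 genes had an unadjusted p under 0.05 in SBP and limma voom called 67). T marker RNA was lower in sham (3965 to 6599 CPM over 9 genes) than in I/R (7542 to 7841 CPM), and cardiomyocyte marker RNA was higher (12714 to 25777 against 3395 to 5653 CPM over 8 genes), with none of either list at 0. Fibroblast marker RNA was 755 to 1067 CPM in sham and 1310 to 2480 CPM in I/R over 8 genes with none at 0, and neutrophil marker RNA 23.0 to 72.6 and 108 to 485 CPM over 6 genes with 1 at 0 in each group. The part of these differences in the Runx2 values was not tested.

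The T nuclei were also of a different mix. Nuclei with Cd8a were 34.8%, 39.7% and 36.5% of sham T nuclei, 77.5%, 73.0% and 68.6% of those in I/R, and 85.0%, 72.4% and 45.5% of those in SBP. Over all mice of a group, Runx2 stood at 401 CPM in Cd8a T nuclei of sham (31 UMIs), 727 CPM in I/R (152 UMIs) and 791 CPM in SBP (98 UMIs). In T nuclei with Lef1 and Tcf7, genes of naive T cells, it stood at 57.8 CPM in sham (10 UMIs), 94.2 CPM in I/R (4 UMIs) and 25.3 CPM in SBP (1 UMI). A small cluster of 55 nuclei with Il23r had the highest pooled level, 1034 CPM from 73 UMIs. In mice with at least 20 Cd8a T nuclei, Runx2 was 260 and 594 CPM in 2 sham mice, 700, 973 and 623 CPM in the I/R mice and 733 CPM in 1 SBP mouse, and no test was run on these clusters.

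Whole-heart Runx2 was 28.3, 37.2 and 36.6 CPM in sham, 85.8, 51.7 and 49.9 in I/R, and 58.7, 93.3 and 72.5 in SBP. Both injured groups were above sham and overlapped each other. The difference from sham was 1.01 in SBP (SE 0.23, 2.02-fold, limma adjusted p = 0.048), called where 2.97% of genes were, and 0.72 in I/R (SE 0.23, adjusted p = 0.0721), which was not called. The SBP call was lost, among other settings, without any one of the sham or SBP mice (0.85 to 1.14, adjusted p up to 0.147), without I/R replicate 2 and SBP replicate 1 together (1.15, adjusted p = 0.0863) and with a pseudocount of 5. In sham, 75.7% of Runx2 UMIs came from fibroblasts outside the Tnc cluster. In I/R 36.8% came from the Tnc cluster and 28.6% from other fibroblasts, and in SBP 33.2% and 39.3%.

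Runx3, the cytotoxic lymphocyte member, had 1675 UMIs in all nuclei. Its mean level was 415 ± 257 CPM in NK nuclei (4 mice), 377 ± 215 in T nuclei (9 mice), 126 ± 50.5 in dendritic nuclei (5 mice) and 60.0 ± 24.6 in myeloid nuclei (9 mice). The step from T to dendritic nuclei exceeded the SD of the T values, and the NK and T levels did not differ beyond their spread. B nuclei had 19.6 ± 21.0 CPM (7 mice), fibroblasts 2.08 ± 1.34 CPM, endothelial nuclei 2.00 ± 1.69 CPM and cardiomyocytes 0.601 ± 0.311 CPM (9 mice each). Mural nuclei had 1 UMI in 194 nuclei.

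In T nuclei, Runx3 was 145, 184 and 238 CPM in sham, 348, 728 and 337 in I/R, and 339, 737 and 342 in SBP. No injured heart overlapped sham, and 1 mouse in each injured group stood well above the others. The log2 differences of 1.10 in I/R (95% interval 0.28 to 1.92, adjusted p = 0.216) and 1.15 in SBP (95% interval 0.34 to 1.97, adjusted p = 0.272) did not pass adjustment. Cd8a T nuclei held 54.7% of the T-nuclei Runx3 UMIs for sham, 85.0% for I/R and 90.2% for SBP. Among NK nuclei, Runx3 was 193 and 195 CPM in 2 sham mice, 611 CPM in 1 I/R mouse and 662 CPM in 1 SBP mouse, too few for a test.

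In myeloid nuclei, Runx3 was 59.8, 35.6 and 50.9 CPM in sham, 45.8, 98.1 and 77.4 in I/R, and 95.4, 35.8 and 41.3 in SBP. The groups overlapped, and the change of 0.56 in I/R (95% interval -0.33 to 1.44, adjusted p = 0.374) was not called. I/R replicate 2 and SBP replicate 1 had the highest values, both in all myeloid nuclei and, with I/R replicate 3, in resident-like macrophages, where Runx3 was 142, 116 and 121 CPM in these mice against 31.7 to 59.3 CPM in the other 6.

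Whole-heart Runx3 was 5.95, 5.62 and 7.28 CPM in sham, 19.1, 25.6 and 12.3 in I/R, and 11.5, 14.8 and 6.30 in SBP. I/R lay wholly above sham, and SBP overlapped both. The difference in I/R was 1.31 on the log2 scale (SE 0.32, 2.48-fold, limma adjusted p = 0.0328). This call was lost without any one sham mouse, I/R replicate 1 or I/R replicate 2 (log2 changes of 1.08 to 1.43, adjusted p of 0.0562 to 0.11), and without I/R replicate 2 and SBP replicate 1 together (1.08, adjusted p = 0.143). No Runx3 change was called in myeloid, resident-like or T nuclei, and it missed the filter in the other types. There the mean levels in I/R and sham were 3.38 and 1.63 CPM in fibroblast nuclei and 3.01 and 0.864 CPM in endothelial nuclei. Neither pair overlapped (exact permutation p = 0.1 for each, two-sided, the smallest possible). In cardiomyocyte nuclei they were 0.748 and 0.649 CPM and overlapped. These levels rest on few UMIs, such as 22 in I/R and 5 in sham endothelial nuclei. The share of Runx3 UMIs from resident-like macrophages was 47.0% in sham and 30.5% in I/R, and injury macrophages and the Vcan and Saa3 cluster gave 20.5% and 15.5% in I/R.

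Cbfb, the shared partner, was measured in every type. Its mean level was 209 ± 40.0 CPM in dendritic nuclei (5 mice), 182 ± 72.4 in NK nuclei (4 mice), 182 ± 56.8 in neutrophils (3 mice), 181 ± 23.6 in myeloid nuclei and 166 ± 46.6 in T nuclei (9 mice each). Fibroblasts had 138 ± 20.6 CPM, B nuclei 132 ± 59.4 (7 mice), endothelial nuclei 113 ± 17.8 and mural nuclei 102 ± 49.8 (4 mice). Neighbours in this order did not differ beyond their spread, down to cardiomyocytes, which stood apart at 36.7 ± 2.97 CPM (9 mice). Cardiomyocytes gave 53.1% of all UMIs of sham hearts but 23.9% of their Cbfb UMIs. None of the 24 Cbfb differences over 3 comparisons and 8 populations was called by limma, 2 had an unadjusted p under 0.05, and limma voom called 0 of 7 in each comparison.

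No Cbfb change was called in the nuclei where Runx1 or Runx2 rose. In fibroblasts it was 146, 116 and 169 CPM in sham, 125, 121 and 134 in I/R, and 113, 162 and 153 in SBP, with a change in I/R of -0.23 (95% interval -0.61 to 0.16, adjusted p = 0.463). In myeloid nuclei it was 150, 152 and 185 CPM in sham, 173, 197 and 170.5 in I/R, and 181, 191 and 227 in SBP. The groups overlapped in both types, and the myeloid change of 0.16 in I/R (95% interval -0.19 to 0.50, adjusted p = 0.548) was not called. Its highest level in a cluster with at least 7 measured mice was in cycling myeloid nuclei, 197 to 304 CPM. In injury macrophages Cbfb was 151, 156 and 135 CPM in I/R and 173, 172 and 241 CPM in SBP, and in T nuclei it was 169, 243 and 225 CPM in I/R and 127, 162 and 105 CPM in SBP. I/R and SBP mice did not overlap in either, with SBP higher in the first and lower in the second (exact permutation p = 0.1 for each, two-sided, the smallest possible). In every other population with 3 mice in both groups, the Cbfb levels of I/R and SBP overlapped. Mice without any difference would split this way at that same rate. These cases were picked from many comparisons, so they are a description. In endothelial nuclei Cbfb was 88.7, 85.4 and 116 CPM in sham, 108, 123 and 119 in I/R, and 108, 140 and 129 in SBP, and the differences of 0.30 (adjusted p = 0.33) and 0.40 (adjusted p = 0.212) from sham did not pass adjustment.

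SBP against I/R asks whether pretreatment moved the members in injured hearts. No member passed the test in any population, and neither did any other gene: limma called 0 genes (0%) in whole heart, cardiomyocyte, fibroblast, other fibroblast, endothelial, myeloid, resident-like macrophage and T nuclei alike. Between 86 and 697 genes per population had an unadjusted p under 0.05, and limma voom, run on 7 of the 8, also called 0 in each. The smallest adjusted p among the 28 member tests was 0.835, and 4 had an unadjusted p under 0.05. Besides Runx2 in other fibroblasts, these were Runx1 in myeloid nuclei (0.53, 95% interval 0.10 to 0.97, unadjusted p = 0.0196, limma adjusted p = 0.999), Runx1 in resident-like macrophages (0.55, 95% interval 0.08 to 1.03, unadjusted p = 0.026, limma adjusted p = 0.835) and Runx3 in the whole heart (-0.75, 95% interval -1.47 to -0.03, unadjusted p = 0.0434, limma adjusted p = 0.996). For fibroblast Runx1 the difference was -0.31 (95% interval -1.02 to 0.40), and it turned to 0.046 without I/R replicate 1. That interval does not show a like level in both groups.

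**Figure D5:**
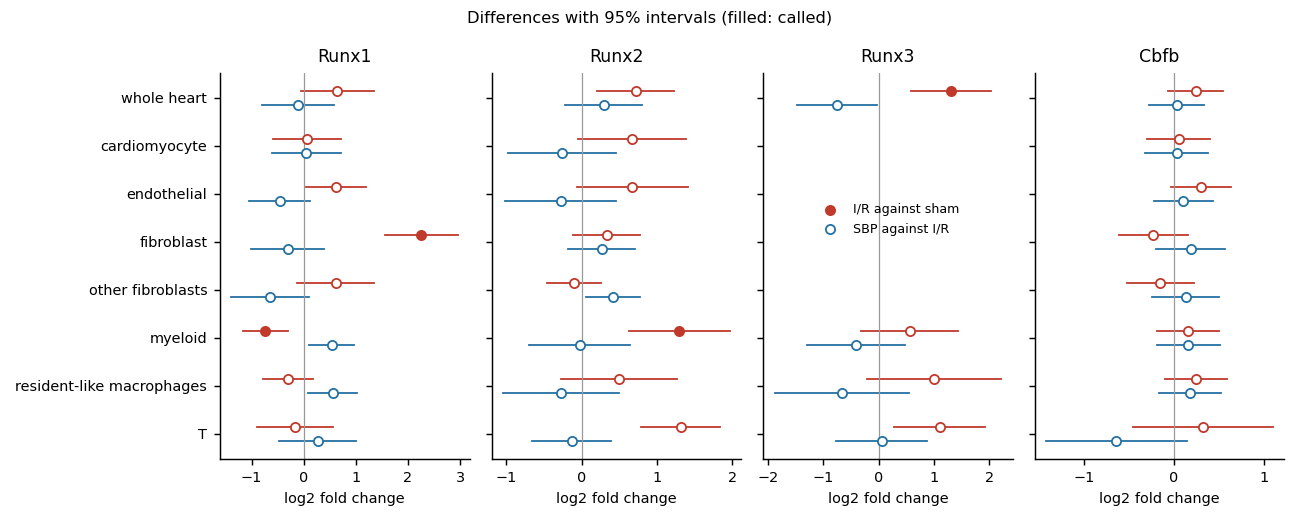
Log2 fold changes of the 4 members in 8 populations for I/R against sham (red) and SBP against I/R (blue), with 95% intervals from limma; filled points passed the test. The filled points are Runx1 in fibroblast (2.26) and myeloid nuclei (-0.74), Runx2 in myeloid nuclei (1.30) and Runx3 in the whole heart (1.31), and no SBP against I/R point is filled; Runx3 is missing where it did not pass the filter on low values.

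Genes that work with RUNX factors were counted from 5 lists drawn from general knowledge. Of 38 partners and cofactors, 35 were tested in fibroblast nuclei, where 1 rose and 3 fell in I/R against sham, with a median log2 change of -0.14 beside 0.0051 over all genes. These 4 of 35 are near the 11.5% called among all fibroblast genes, so the count is no result about the partners, and their values are given as a description. Ets1, which binds DNA together with RUNX1, was 169, 173 and 234 CPM in sham and 109, 66.6 and 86.2 in I/R fibroblasts, and fell by 1.21 on the log2 scale (adjusted p = 0.00313). Cbfa2t3, a corepressor of the ETO family, fell by 1.02 (adjusted p = 0.0143), Tle5, a short Groucho-related protein, fell by 0.72 (adjusted p = 0.0157), and the bZIP factor Cebpb rose by 1.45 (adjusted p = 0.0345). Endothelial marker RNA in fibroblast nuclei was 272 to 356 CPM in sham and 189 to 245 CPM in I/R over 8 genes with none at 0, beside the dendritic and cardiomyocyte RNA that was also lower, and their part in these values was not tested. Of the 33 partners tested in myeloid nuclei, 3 rose and 8 fell, with a median of -0.25 beside 0.029, where 17.5% of all myeloid genes were called, and limma voom called 10. The Groucho corepressor Tle1 fell by 1.78 (adjusted p = 0.00169) and the adaptor Lmo2 by 1.29 (adjusted p = 0.00797), while Cebpb rose by 2.25 (adjusted p = 0.00412). Endothelial, B and dendritic marker RNA was lower in these I/R nuclei too, and its part was not tested. In cardiomyocytes limma called 0 of 34 partners, of which 7 had an unadjusted p under 0.05, and limma voom called 0.

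Skeletal target genes of Runx2 were called in 4 of 9 tested members in fibroblasts, all higher, and in 4 of 6 in myeloid nuclei, 3 of them higher. Among all genes 11.5% and 17.5% were called in these nuclei, and limma voom called 3 of the list in each. In cardiomyocytes 3 of 7 were called (limma voom 2, all genes 0.814%), in endothelial nuclei 3 of 8 (limma voom 2, all genes 3.13%) and in fibroblasts outside the Tnc cluster 1 of 8 (limma voom 0, all genes 3.57%). No Runx2 difference between I/R and sham was called in these types or in fibroblast nuclei as a whole (0.34, limma adjusted p = 0.343). Of the types named here, only myeloid nuclei had a called one. In fibroblast and myeloid nuclei alike, those that rose were Spp1, Col1a1 and Col1a2, with Tnfsf11 in fibroblasts. The one that fell was Mmp13, a collagenase, in myeloid nuclei (28.97, 35.6 and 53.9 CPM in sham, 1.96, 3.10 and 0.916 CPM in I/R, -3.77 on the log2 scale, adjusted p = 0.00032). Spp1, the matrix protein osteopontin, was listed at 0 UMIs in sham fibroblasts and reached 382, 39.1 and 81.0 CPM in I/R. It also reached 173, 12.1 and 26.4 CPM in I/R cardiomyocytes, 651, 41.3 and 106 in endothelial nuclei and 978, 88.5 and 275 in myeloid nuclei. I/R replicate 1 was highest in every type. Within the nuclei named cardiomyocyte, a cluster of 916 (before doublets were removed) was led by Spp1, Gpnmb, Lyz2, Col1a1 and Col1a2 among others. Its part in the cardiomyocyte values was not tested. Col1a1, a fibroblast collagen, was higher by 3.38 in fibroblasts, 3.24 in cardiomyocytes, 3.06 in endothelial nuclei and 2.71 in myeloid nuclei, in nuclei with and without a called Runx2 change. Fibroblast marker RNA, a list of 8 genes that includes Col1a1 and Col1a2 and had none at 0, was 294 to 352 CPM in sham and 410 to 487 CPM in I/R cardiomyocytes, and 1012 to 1275 and 1299 to 1841 CPM in endothelial nuclei. In myeloid nuclei it was 739 to 952 and 857 to 1318 CPM, which overlapped. Its part in these values was not tested.

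Blood-lineage targets of Runx1 were called in 7 of 12 tested members in fibroblasts (6 higher, 1 lower) and in 6 of 12 in myeloid nuclei (4 higher, 2 lower), where 11.5% and 17.5% of all genes were called. Limma voom called 3 of the list in fibroblasts and 4 in myeloid nuclei. Where no Runx1 difference was called, 3 of 12 were called in cardiomyocytes (limma voom 2, all genes 0.814%), 4 of 12 in endothelial nuclei (limma voom 3, all genes 3.13%) and 7 of 11 in fibroblasts outside the Tnc cluster (limma voom 4, all genes 3.57%). In resident-like macrophages, also without a called Runx1 difference, 1 of 10 was called, Ccnd2 (limma voom 1, all genes 1.41%). Hmga2, a chromatin protein, was 0.441, 0.725 and 0.331 CPM in sham fibroblasts (1 to 2 UMIs a mouse) and 24.9, 133 and 62.1 CPM in I/R (adjusted p = 0.000328). It is also a leading gene of the Tnc cluster, which is almost absent from sham hearts. In myeloid nuclei Ccnd2, a cyclin, fell by 1.72 (adjusted p = 0.000878) and Csf1r, the macrophage growth factor receptor and a known RUNX1 target, fell by 0.67 (467, 564 and 548 CPM in sham, 417, 281 and 300 in I/R, adjusted p = 0.0132). Csf1r is also 1 of the 12 markers from which myeloid nuclei were named, and it was not called in resident-like macrophages. The part of the changed mix of myeloid nuclei in these falls was not tested. Pf4, a chemokine of platelets and macrophages, was higher by 2.19 in cardiomyocytes, 2.47 in fibroblasts and 2.86 in endothelial nuclei. Myeloid marker RNA was 54.0 to 67.7 CPM in sham and 84.0 to 167 CPM in I/R cardiomyocytes, over 12 genes with none at 0, and 210 to 274 and 376 to 654 CPM in endothelial nuclei. In fibroblasts, neutrophil marker RNA was 10.5 to 42.3 CPM in sham and 70.1 to 279 CPM in I/R. The part of these RNAs in Pf4 and the rest of this list, which includes the leukocyte integrin Itgam, was not tested. Of the lymphoid targets of Runx3, 7 were tested in T nuclei in I/R against sham, where limma and limma voom called 0 and 2 had an unadjusted p under 0.05. In SBP against sham limma also called 0 of the 7 and limma voom called 1. In I/R against sham Cd244a, a lymphocyte receptor, was the 1 called gene of 4 tested in fibroblasts (limma adjusted p = 0.0483), where limma voom called 0, and of 3 tested in myeloid nuclei (limma adjusted p = 0.032), where limma voom called 1; 11.5% and 17.5% of all genes were called in these nuclei. The list of calcium-handling and metabolic genes, studied downstream of Runx1 in cardiomyocytes (Pln, Atp2a2, Ryr2 and others), had 0 of 8 members called in cardiomyocyte nuclei by limma or limma voom, with 2 at an unadjusted p under 0.05. It had 4 of 8 lower in both fibroblast and myeloid nuclei (limma voom called 4 and 3, and 11.5% and 17.5% of all genes were called there), as cardiomyocyte marker RNA in those nuclei also was (4963 to 6271 CPM in sham and 1793 to 2675 in I/R fibroblasts). Pln and Ryr2 stand in both lists.

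Over 18 cell types and clusters, the genes whose levels went most closely with each member were listed among 8703 genes (Pearson r of log2(CPM + 1) over means of mice, a description, since all values come from the same 9 libraries). For Runx1 these were Fgd3 (r = 0.951), Arhgap45, Gmip, Arhgap30 and Capza1. For Runx2 they were Aen (r = 0.853), Trip11, Copg1, Ifngr1 and Trpc4ap. For Runx3 they were Epsti1 (r = 0.975), Itga4, Cd48, Bin2 and Atp8b4, and for Cbfb Foxn2 (r = 0.924), Exoc1, Arpc1b, Wipf1 and Rab8b. Between members, r was 0.881 for Runx1 with Runx3, 0.762 for Runx1 with Cbfb and 0.551 for Runx1 with Runx2.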

How the data were processed

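Nuclei of 9 mouse hearts were sequenced on the 10x Chromium platform. The submitters' processing notes name Cell Ranger 4.0, STAR and Seurat 3.2.0 with GRCm38; intron counting is not given in the sources used here. The deposited values are natural log values that the authors made as ln(1 + UMIs scaled to 10000 per nucleus). UMIs were recovered from them (at least 99.99936% of values within 0.1 of a whole number) and summed per mouse and population. Nuclei were clustered with scanpy 1.11.5 on 2000 variable genes without the 4 members (resolution 0.3) and named from marker genes. Lymphoid nuclei were clustered again as a step added after seeing the data. The doublet caller marked 0.173% of nuclei and so did not work; removing the 2168 highest scorers was an alternative. Sums were TMM-scaled and tested with limma 3.58.1 in R 4.3.3 (trend, robust) on log2(CPM + 1), for genes that had, in at least 3 samples, a CPM worth 10 UMIs at the median library size, and 15 UMIs in all. Limma voom on the recovered UMIs was an alternative, and no other count model was run. The script was tested on simulated data. Members and gene lists were chosen with earlier results of these data known. The text names the members, the called list genes with the smallest p (up to 4 per list and contrast), markers that move with a result, and the 5 genes most like each member.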

Additional observations from a re-analysis of the deposited data

Results flagged for a closer look

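The response of Runx1 to I/R ran in opposite directions in 2 cell types. Every I/R mouse was above every sham mouse in fibroblast nuclei and below every sham mouse in myeloid nuclei. On per-mouse log2(CPM + 1) values without TMM scaling, the 2 changes differed by 3.07. The exact two-sided permutation p was 0.1, the smallest that 3 against 3 mice allow. This item was picked because the mice did not overlap in either type, in opposite directions. That choice fixed the p in advance, so it adds nothing to the observation. The limma changes with TMM scaling, 2.26 in fibroblast and -0.74 in myeloid nuclei, were both called. The myeloid call was lost without sham replicate 1, sham replicate 3, I/R replicate 2 or I/R replicate 3. The part of the changed mix of nuclei in either change was not tested.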

How the results depend on the processing

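Of the 7 called member differences, none changed direction under any alternative. Apart from leaving out 1 mouse, 72 of their values kept the call and 7 lost it; with 1 mouse left out, 43 kept it and 20 lost it. Those that lost it were, for Runx3, whole heart, I/R against sham 1.08 without I/R replicate 2 and SBP replicate 1 together (an alternative chosen after seeing the data, like typing by the first clustering alone); for Runx1, myeloid, I/R against sham -0.58 without the same mice; for Runx2, whole heart, SBP against sham 1.15 without them, 0.94 with a pseudocount of 5 and 1.01 with the replicate block (adjusted p = 0.0874); and with limma voom, for Runx2, myeloid, I/R against sham 1.27 and for Runx2, myeloid, SBP against sham 1.28. Over all left-out mice, calls lost or kept, the log2 changes ranged from 1.08 to 1.57 for Runx3 in the whole heart, -0.94 to -0.59 for myeloid Runx1, 1.01 to 1.55 and 1.04 to 1.52 for myeloid Runx2 (I/R and SBP against sham) and 0.85 to 1.14 for whole-heart Runx2. Cardiomyocyte Runx1, not called, turned to -0.33 in I/R against sham and -0.31 in SBP against sham when nuclei were typed by marker score, and to -0.0019 in SBP against I/R without TMM factors; over left-out mice it ranged from -0.33 to 0.37 in I/R against sham and -0.25 to 0.45 in SBP against I/R. The other member differences that changed direction were not called either. Without I/R replicate 2 and SBP replicate 1, Cbfb was -0.066 in cardiomyocytes in SBP against I/R, Runx1 was 0.059 in T nuclei in I/R against sham, and in SBP against sham Cbfb was 0.096 in fibroblasts and 0.060 in other fibroblasts and Runx3 was -0.29 in myeloid and -0.19 in resident-like nuclei. In SBP against I/R, Cbfb in cardiomyocytes was -0.026 without TMM factors, Runx2 in myeloid nuclei 0.012 with limma voom, and Runx3 in T nuclei -0.0005 without TMM factors, -0.085 with no filter on low genes, -0.17 by marker score and -0.20 by the first clustering. In T nuclei in SBP against sham, Runx1 was -0.0015 with no filter and -0.078 by the first clustering, and Cbfb was 0.39 with the highest doublet scores removed, 0.14 by marker score and 0.066 by the first clustering. Over left-out mice, SBP against I/R ranged for Runx1 from -0.38 to 0.28 in the whole heart, -0.67 to 0.046 in fibroblasts and -0.038 to 0.54 in T nuclei, for Runx2 from -0.61 to 0.033 in cardiomyocytes, -0.58 to 0.045 in endothelial and -0.24 to 0.25 in myeloid nuclei, for Runx3 from -0.29 to 0.40 in T nuclei, and for Cbfb from -0.025 to 0.14 in cardiomyocytes and -0.045 to 0.12 in the whole heart. I/R against sham ranged from -0.046 to 0.12 for Cbfb in cardiomyocytes, -0.44 to 0.051 for Runx1 in T nuclei and -0.26 to 0.053 for Runx2 in other fibroblasts. SBP against sham ranged for Cbfb from -0.20 to 0.096 in fibroblasts and -0.19 to 0.12 in other fibroblasts, for Runx1 from -0.20 to 0.36 in T, -0.0088 to 0.36 in endothelial and -0.24 to 0.17 in other fibroblast nuclei, for Runx2 from -0.028 to 0.49 in resident-like nuclei, and for Runx3 from -0.29 to 0.40 in myeloid and -0.19 to 0.64 in resident-like nuclei. Differences not called passed the threshold in 6 values under other settings and in 5 with 1 mouse left out. Typing by marker score also moved the mean levels of Runx1 in cardiomyocyte nuclei to 21.1 CPM and of Runx2 in T nuclei to 240 CPM.

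Counts of called genes depended more on the setting. In I/R against sham, fitting only the 6 samples compared gave 956 genes in the whole heart, 59 in cardiomyocyte, 999 in fibroblast, 144 in other fibroblast, 241 in endothelial, 55 in resident-like and 85 in T nuclei, and in SBP against sham 1622 in the whole heart and 1 in T nuclei. Limma voom gave 51 in cardiomyocyte, 227 in resident-like and 29 in T nuclei in I/R against sham, and 453 in fibroblast and 67 in T nuclei in SBP against sham. With no filter on low genes there were 240 in resident-like and 73 in T nuclei in I/R against sham, 1 in T nuclei in SBP against I/R and 38 in T nuclei in SBP against sham. A pseudocount of 5 gave 68 in cardiomyocytes. For T nuclei (I/R and SBP against sham), removing the highest doublet scores gave 43 and 3, marker scores 88 and 70, and the first clustering alone 6 and 7. Without I/R replicate 2 and SBP replicate 1 there were, in I/R against sham, 322 in the whole heart, 17 in cardiomyocyte, 663 in fibroblast, 69 in other fibroblast, 92 in endothelial, 72 in resident-like and 0 in T nuclei, and in SBP against sham 146 in the whole heart, 450 in fibroblast and 3 in T nuclei. The replicate block gave 237 in the whole heart in SBP against sham, 1 in fibroblasts in SBP against I/R, and 18 and 1 in T nuclei (I/R and SBP against sham). Replicate numbers in the titles are not stated to pair mice: same-numbered mice had correlations of deviations from -0.401 to 0.295 and other pairs up to 0.459, and the block changed no other call of a member except that Runx2 in T nuclei passed in I/R against sham (1.31, adjusted p = 0.0369).

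With 1 mouse left out, I/R against sham gave 358 to 2599 genes in the whole heart, 19 to 785 in cardiomyocyte, 833 to 1685 in fibroblast, 43 to 985 in other fibroblast, 68 to 638 in endothelial, 1243 to 1832 in myeloid, 20 to 611 in resident-like and 0 to 46 in T nuclei. SBP against sham gave 39 to 1054 in the whole heart, 361 to 963 in fibroblast, 545 to 1651 in myeloid and 0 to 37 in T nuclei, and SBP against I/R gave 0 to 1 in cardiomyocyte, 0 to 2 in other fibroblast, 0 to 4 in endothelial, 0 to 8 in myeloid and 0 to 29 in resident-like nuclei. The causes were not tested. Depth limits Runx3 outside leukocytes and all members in T, NK, B, dendritic and Schwann nuclei.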

Other observations

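In Cd209a dendritic nuclei, Runx1 was 2129 CPM in the 1 I/R mouse and 2795 CPM in the 1 SBP mouse with at least 20 nuclei, and Runx2 was 503 and 954 CPM. In Clec9a dendritic nuclei, Runx1 was 1202 and 1190 CPM and Runx2 132 and 178 CPM in 1 mouse of each of these groups, beside 1051 and 20.2 CPM in 1 sham mouse. In Schwann nuclei, pooled over mice, Runx2 was 48.1 CPM in sham (6 UMIs in 57 nuclei), 317 CPM in I/R (16 UMIs in 26 nuclei) and 892 CPM in SBP (158 UMIs in 38 nuclei). No I/R or SBP mouse had 20 Schwann nuclei, so these values have no replicate error.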
